A study of Mus musculus with 2 samples.

Results

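The 9 genes described here are the Ras and Myc proto-oncogenes listed by symbol in a table of 23227 gene symbols: the Ras genes Hras1, Nras, Rras, Rras2 and Mras, and Myc, Mycn, Mycl1 and Max. They were chosen by name, not by level, though with earlier results of these data known. They comprise 5 Ras genes and 4 genes of the Myc and Max group. PolyA-selected RNA of cultured mouse cells without Dicer (KO, genotype Dicer -/-) was set against that of cells with floxed and intact Dicer (WT, genotype Dicer f/f). Mature microRNAs are made from their precursors by Dicer, and the question was how messenger RNA levels differ in its absence. Both genotypes were immortalised monoclonal lines of adult mesenchymal stem cells, named fibroblasts in other labels, so each genotype is 1 clone and clone and genotype cannot be told apart. Both were grown in alpha-MEM with fetal bovine serum and lysed below confluence, and the labels used here give neither the immortalising agent nor the means by which Dicer was removed.

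Ras proteins are small GTPases held at the inner face of the plasma membrane. Exchange factors load them with GTP, GTPase-activating proteins switch them off, and loaded Ras engages RAF kinases and so the ERK cascade, as well as PI3-kinase and other effectors. MYC, MYCN and MYCL are transcription factors that bind E-box DNA as heterodimers with MAX, and they drive genes of ribosome production, nucleotide synthesis and metabolism. In mesenchymal cells both pathways respond to growth factors in serum. Several Ras and Myc messenger RNAs are published microRNA targets, with let-7 acting on Ras genes and miR-34 on Myc genes as common examples.

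The microRNA families searched against the members included the following mature microRNAs, shown because their seeds define the sites given next. Sequences are from RefSeq (GRCm38.p6), written 5′ to 3′, with the seed (bases 2 to 8) in capitals.
let-7a-5p: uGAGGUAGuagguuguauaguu
miR-34a-5p: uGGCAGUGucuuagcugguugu
miR-16-5p: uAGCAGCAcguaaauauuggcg
miR-29a-3p: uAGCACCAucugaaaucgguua
miR-26a-5p: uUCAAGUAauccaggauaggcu
miR-24-3p: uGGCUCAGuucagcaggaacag

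Sites were matches of 7 bases to the complement of the seed, on the transcript strand, in the longest 3' UTR annotated by GENCODE M21 (GRCm38) for each gene. All 6 sites of Mras are shown because Mras was the member that fell in KO. One site of Nras, which is the only let-7 site among the members, and miR-34 sites of Rras and Mycn are shown for comparison. Capitals mark the bases that pair with the seed, and the last base printed is the one after them.
Mras, miR-34, first site: gccagcccctgggaccagccCACTGCCt
Mras, miR-34, second site: tctacactcagggcagcagcCACTGCCa
Mras, miR-29: acaatgcactcctccctctcTGGTGCTg
Mras, miR-15/16: atgcactcctccctctctggTGCTGCTa
Mras, miR-26: ggtttacccacaatgccagaTACTTGAa
Mras, miR-24: ccaaaccttttgtgtgttgaCTGAGCCc
Nras, let-7: ctgagacctcttcagaataaCTACCTCc
Rras, miR-34: tctttcagaaaaataaatatCACTGCCa
Mycn, miR-34: acgtttcccacacggacagtCACTGCCa

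Over 10 families, the 9 members held 22 sites, and 9 of these were followed by A, which makes a match of 8 bases. Mras had the most sites, with 6 from 5 families in a 3' UTR of 2985 bases, beginning 55, 216, 1224, 1227, 1846 and 2823 bases after the stop codon. Its miR-29 and miR-15/16 sites share bases, so they are not separate stretches of sequence. Mycn had 5 sites in 913 bases, Nras 4 in 3727 bases, and Hras1, Rras and Mycl1 had 2 each, those of Rras in 283 bases. Per kilobase of 3' UTR, Rras at 7.07 sites and Mycn at 5.48 had more than Mras at 2.01. Rras2 had 1 site, for miR-26. No match of the families searched was found in the 466 bases of the Myc 3' UTR or the 1299 bases of the Max 3' UTR. Matches to fewer bases of the seed were not counted, and 1 planned family was not searched because no sequence for it was available.

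The miR-34 motif CACTGCC was in the 3' UTR of 4 members, Hras1, Rras, Mras and Mycn, and in 17.7% of the 11318 tested genes with a 3' UTR. TGCTGCT of miR-15/16 was also in 4 members and in 25.4% of tested genes, and TGGTGCT of miR-29 was in 3 members and 16.2% of tested genes. CTGAGCC of miR-24 was in 3 members and 19.5% of tested genes, and TACTTGA of miR-26 was in 2 members and 11.8% of tested genes. The let-7 motif CTACCTC was in Nras alone among the members and in 10.7% of tested genes. GCACTTT of miR-17 (15.1% of tested genes), ATAAGCT of miR-21 (8.04%) and GTACTGT of miR-101 (11.8%) were each in 1 member, and ACTACTG of miR-199a-3p (8.92%) was in none. The median 3' UTR of tested genes was 1210.5 bases, and a longer UTR holds more matches of any motif. A match describes sequence and does not show that a microRNA acts there.

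**Figure D1:**
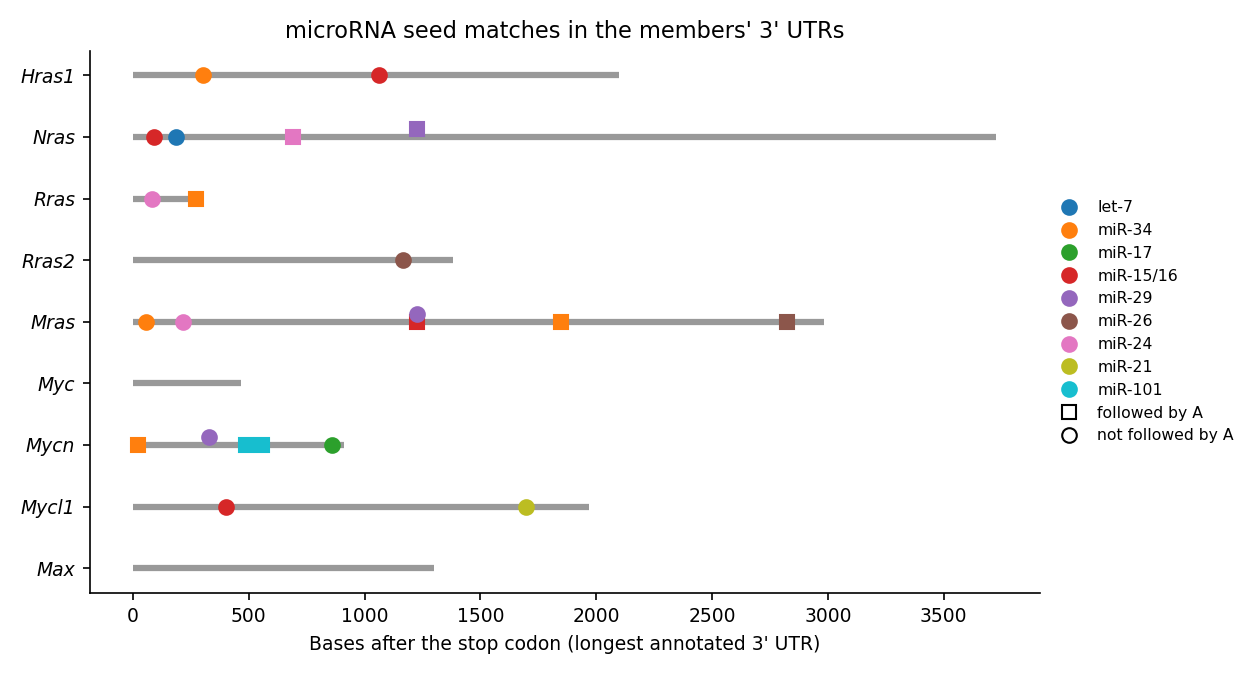
Seed matches along the longest annotated 3' UTR of each member, in bases after the stop codon. Grey bars are the UTRs, colours are microRNA families, squares are matches followed by A and circles are matches without it. Mras holds 6 matches, and Myc and Max hold none.

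The authors deposited a mean of normalised reads per genotype, and the table itself showed each mean to come from 2 libraries, called deeper and shallower after their totals. Values of a genotype's libraries are given with the deeper one before the shallower one. The labels give 1 sample per genotype and do not say that these libraries came from separate cultures, so p-values measure only the spread between libraries, which may be technical. Totals were 15718369 and 14969532 reads in genes for KO and 15369250 and 14135422 for WT, with 15370 to 15705 genes detected in each library. Between the libraries of 1 genotype, 8.56% of tested genes in KO and 8.86% in WT were at least 2-fold apart. Dicer1 itself had 573 and 557 normalised reads in the KO libraries and 804 and 943 in the WT libraries. A value for the whole gene does not separate the deleted part from the rest of the transcript. Of 12 mesenchymal stem cell and fibroblast markers, 11 passed the minimum for testing and Thy1 was listed at 0 in every library. The summed level of the 12 was 107251 and 132083 normalised reads in KO, against 176455 and 215938 in WT, with the collagens Col1a1 and Col1a2 lower and Vcam1 higher by 2-fold in KO. Summed markers of haematopoietic, endothelial, epithelial, pluripotent and neural crest cells were each at most 48.2 normalised reads in any library, and Cd3e, Epcam and 5 of 6 neural crest markers were at 0 in all of them. In bulk RNA, fewer cells of a type and less RNA per cell cannot be told apart.

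Among the members, Mras fell in KO and the other 6 genes with enough reads stayed within 2-fold of WT. Tested genes were the 11710 with a mean of at least 20 normalised reads, which took in 7 members and left out Mycn and Mycl1. By the size rule used here, a ratio of at least 2 or at most 0.5 with a 95% exact counting interval that excludes 1, 1 of the 7 tested members was lower, 0 were higher and 6 passed in neither direction. Of all tested genes, 17.5% passed, 8.92% higher and 8.56% lower. The authors' deposited table also gave 1 tested member, Mras, an adjusted p of at most 0.1, against 10.9% of tested genes (5.56% higher and 5.34% lower). limma on log2 values of the 4 libraries called the same gene at an adjusted p of at most 0.05, against 8.75% of tested genes, 4.14% lower in KO. Mras was also the 1 member with an unadjusted limma p under 0.05, against 29.0% of tested genes. Libraries of the genotypes did not overlap for 4 of the 7 tested members, with Rras and Max above and Hras1 and Mras below, which is near the 59.3% of all tested genes without overlap (30.4% above and 28.8% below). The median log2 ratio of the 7 members was -0.33, beside -0.01 for all tested genes, and the typical tested gene had an absolute log2 ratio of 0.40.

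**Figure D2:**
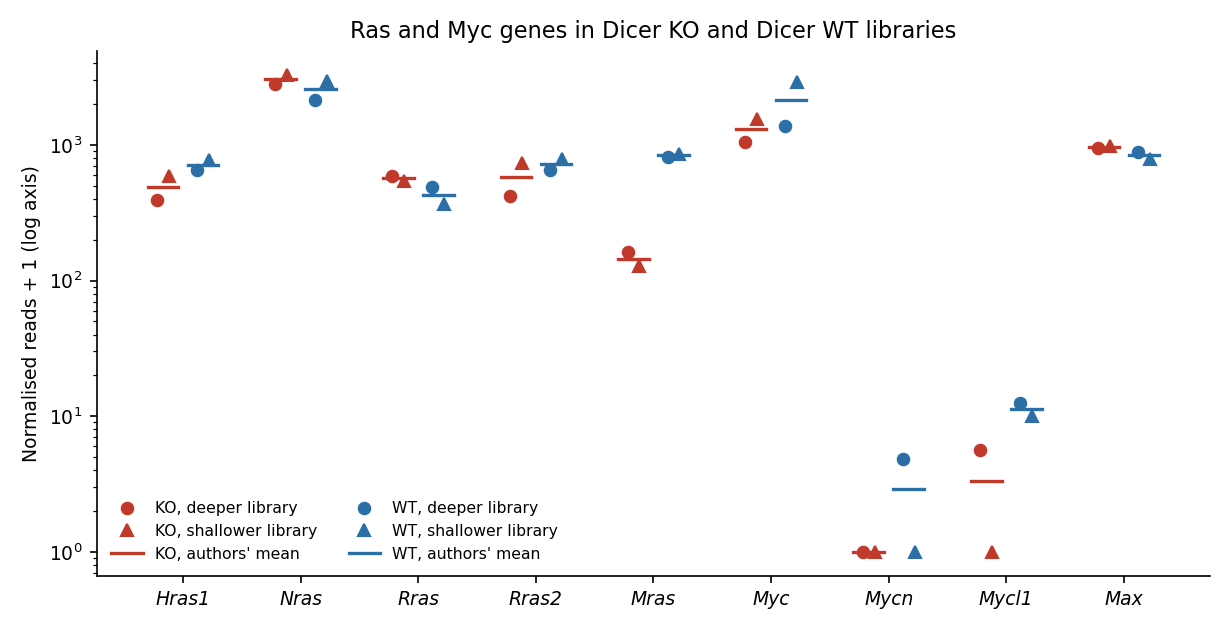
Normalised reads plus 1 of each member on a log axis, with KO in red on the left of each pair and WT in blue on the right. Circles are deeper libraries, triangles are shallower libraries and lines are the authors' means. Mras stands at 126 to 160.05 normalised reads in KO and 820.3 to 862 in WT, while the means of every other tested member are less than 2-fold apart.

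Among the Ras genes, Hras1 encodes H-Ras, a founding member of the family that signals to RAF and PI3-kinase. It had 389 and 586 normalised reads in the KO libraries, against 653 and 769 in the WT libraries, so both KO values lay below both WT values. The ratio of means was 0.686 (95% counting interval 0.632 to 0.745). The authors' deposited table gave an adjusted p of 0.621 and limma one of 0.230, so this difference did not pass the spread between libraries.

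Nras encodes N-Ras, which shares the core effectors of H-Ras. It had 2794 and 3298 normalised reads in KO and 2151 and 2971 in WT. The groups overlapped, since the deeper KO library lay below the shallower WT library. The ratio was 1.19 (1.15 to 1.23), with an adjusted p of 1 in the authors' deposited table and of 0.489 with limma. The let-7 site shown above is in this gene.

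Rras encodes R-Ras, which is known for regulating integrin adhesion. It had 591 and 540.3 normalised reads in KO, above the 489 and 368 in WT, with no overlap. The ratio of 1.32 (1.21 to 1.45) had an adjusted p of 0.868 in the authors' deposited table and of 0.281 with limma. Rras2, which encodes TC21, a close relative of R-Ras with transforming activity, had 421 and 730.4 normalised reads in KO and 656 and 788 in WT. The shallower KO library lay between both WT libraries and the deeper KO library lay below them. The Rras2 ratio was 0.797 (0.737 to 0.862) and turned to 1.01 without the deeper KO library. In the authors' deposited table Rras2 had an adjusted p of 0.953.

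Mras encodes M-Ras, which forms a phosphatase complex with SHOC2 and PP1 that removes an inhibitory phosphate from RAF kinases. It had 160.05 and 126 normalised reads in the KO libraries, from 174 and 127 reads, against 820.3 and 862 in the WT libraries, from 851 and 769 reads. Both KO libraries were far below both WT libraries, and the libraries of each genotype lay close to each other. Mras was 5.87-fold lower in KO, a ratio of 0.170 (0.150 to 0.193), with an adjusted p of 2.02e-08 in the authors' deposited table. With limma the log2 difference was -2.56 with an SE of 0.21 and an adjusted p of 0.0133, from 2 libraries per genotype. Leaving out any 1 library kept the ratio between 0.150 and 0.190. Of the tested genes, 287 (2.45%) had a ratio as low as that of Mras or lower.

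The 3 tested genes whose values were most like those of Mras were Tmem47, 6230409E13Rik and Gnao1, by the distance between centred log2 values over the 4 libraries. Tmem47, which encodes a membrane protein, was nearest at a distance of 0.05 and had 175 and 138 normalised reads in KO, against 911 and 979 in WT. 6230409E13Rik stood at a distance of 0.14, with 85.5 and 75.6 normalised reads in KO and 501 and 507 in WT. Gnao1, which encodes a G protein alpha subunit best known from neurons, stood at 0.18, with 708 and 515 normalised reads in KO and 3790.2 and 3415 in WT. All 3 had both KO libraries below both WT libraries, as the choice by likeness to Mras requires.

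Myc, which encodes the transcription factor c-MYC, had 1048 and 1561 normalised reads in KO, against 1385 and 2891 in WT. The shallower WT library was high and 2.09-fold above the deeper one, and the deeper WT library lay below the shallower KO library, so the groups overlapped. The ratio was 0.610 (0.581 to 0.641), with an adjusted p of 0.886 in the authors' deposited table. With limma the log2 difference was -0.65 with an SE of 0.41 and an adjusted p of 0.366. The ratio turned on single libraries. Leaving out the shallower WT library gave 0.942, and leaving out the deeper KO library gave 0.730. It passed 2-fold at 0.490 when the shallower KO library was left out, and at 0.451 when the deeper WT library was left out.

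Max encodes the obligate partner of the Myc proteins. It had 944 and 982 normalised reads in KO, both above the 893 and 789 in WT. The ratio was 1.15 (1.07 to 1.22), with an adjusted p of 1 in the authors' deposited table and of 0.472 with limma.

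Mycn, which is best known in neural tissue and neuroblastoma, had 0 reads in both KO libraries and 4 reads in WT, all in the deeper library. A count of 0 allows up to 3 reads, or 1.43 normalised reads as the KO mean, beside a WT mean of 1.93, so no fold is given. Mycl1, the L-Myc gene, had 5 reads over the KO libraries (4.60 and 0 normalised reads) and 20 over the WT libraries (11.6 and 8.97). Its ratio was 0.224 (0.0657 to 0.615), and the authors' deposited table gave an adjusted p of 0.741. Without a minimum mean, Mycl1 would join Mras past 2-fold. On leaving out the shallower KO library its ratio was 0.448 (0.131 to 1.23), an interval that includes 1, and on leaving out the deeper KO library KO had 0 reads.

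**Figure D3:**
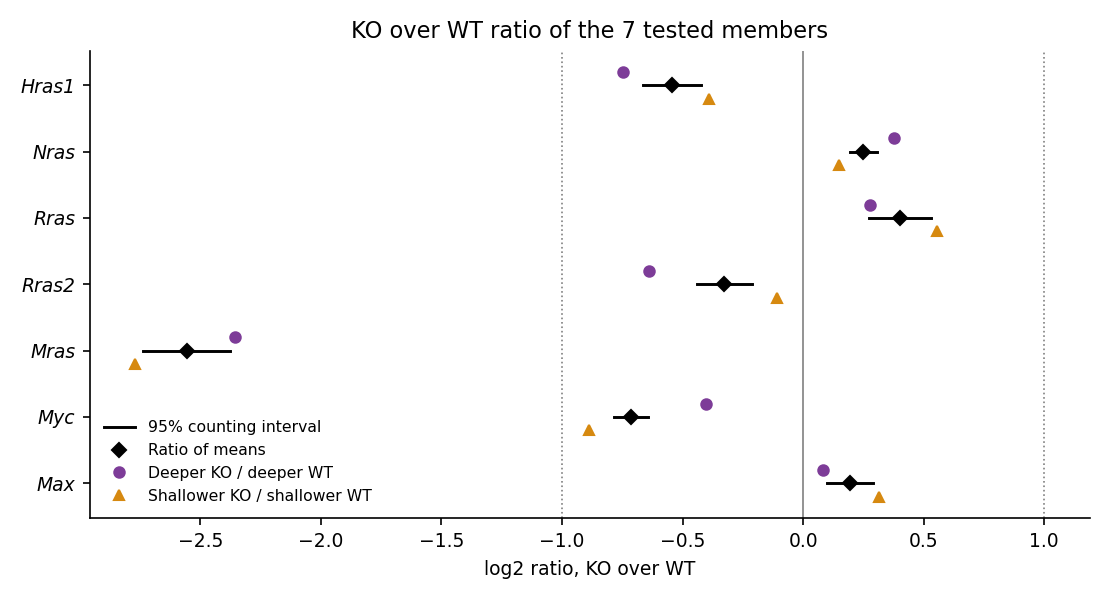
log2 ratio of KO over WT for the 7 tested members. Diamonds are ratios of the authors' means with 95% counting intervals as lines, circles compare the deeper libraries, triangles compare the shallower libraries, and dotted lines mark 2-fold. Mras lies beyond 2-fold in all comparisons, and for all 7 members the library pairs spread wider than the counting interval.

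Levels of different members were compared per kilobase of their longest annotated transcript, as normalised reads per kilobase. In KO the order was Nras at 681, Rras at 569, Myc at 558, Max at 496, Rras2 at 253, Hras1 at 172, Mras at 30.5, Mycl1 at 0.657 and Mycn at 0. Libraries overlapped between Rras and Myc, Myc and Max, Rras2 and Hras1, and Mycl1 and Mycn, so these neighbours in the KO order did not differ beyond their spread. Nras and Myc, which were not neighbours, also overlapped in KO, at 625 and 738 against 448 and 668. In WT the order was Myc at 915, Nras at 573, Max at 433, Rras at 430.4, Rras2 at 317, Hras1 at 251, Mras at 179, Mycl1 at 2.93 and Mycn at 0.721. Among neighbours in the WT order, libraries overlapped between Myc and Nras and between Max and Rras. Nras and Rras, which were not neighbours, also overlapped in WT, at 481 and 665 against 491 and 370. The transcripts the authors counted are not known, and the order depends on the length used. With the median transcript length 7 of 9 members kept their KO rank, but only 4 of 9 kept their WT rank. Mras then ranked 3 in WT in place of 7, at 714 normalised reads per kilobase, and Nras ranked above Myc.

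By the longest transcripts, the summed per-kilobase level of the 5 Ras genes was 1706 normalised reads per kilobase in KO and 1751 in WT. Mras made up 2.16% and 1.46% of this sum in the KO libraries, against 10.5% and 9.99% in the WT libraries. Nras made up 39.7% and 40.2% in KO, against 28.9% and 36.2% in WT, with no overlap for either gene. Shares of 1 sum depend on each other, and the normalised reads of Nras itself overlapped between the genotypes. By median transcript lengths, an alternative chosen after seeing the data, the sum was 5316 in KO and 5287 in WT, so which genotype had the higher sum turned with the length. Nras then made up 71.4% in KO and 60.4% in WT, and Mras 2.29% in KO and 13.5% in WT. Of the summed level of Myc, Mycn and Mycl1, Myc made up 99.9% in KO and 99.6% in WT.

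The regulators around Ras were described from lists by role, with counts of tested genes. Over 12 lists, 184 tested genes held 12 that were higher and 13 that were lower by the size rule, or 13.6% against 17.5% of all tested genes. By adjusted p in the authors' deposited table, 7 were higher and 5 were lower, or 6.52% against 10.9%. Counts of each list below are to be read beside the shares of all tested genes, 8.92% higher and 8.56% lower by the size rule. By adjusted p in the authors' deposited table these shares were 5.56% and 5.34%. The lists were chosen with earlier results of these data known.

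Among 13 tested Ras-related GTPases, 1 was higher and 1 lower, and 11 passed in neither direction. The median log2 ratio was 0.09, and it was -0.05 on leaving out the deeper KO library and -0.10 on leaving out the shallower KO library. Rhebl1, a relative of the mTORC1 activator Rheb, had 224 and 188 normalised reads in KO and 74.2 and 71.8 in WT, a ratio of 2.83 with an adjusted p of 0.0226 in the authors' deposited table. The lower gene, Rap2a, was named after its value was seen. Its ratio was 0.471, and it was no longer past 2-fold without the deeper WT library (0.632) or the deeper KO library (0.503). In each of these settings 2 GTPases were higher and 0 lower.

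Of 3 tested exchange factors, 1 rose and 1 fell. Sos2, which loads Ras downstream of receptor tyrosine kinases, had 715 and 561 normalised reads in KO and 294 and 283 in WT. Its ratio was 2.21, with an adjusted p of 0.0432 in the authors' deposited table, and 1.95 without the deeper KO library, when 1 exchange factor in place of 2 passed 2-fold. Rasgrp3, which loads Ras and Rap in response to diacylglycerol, had 12.0 and 27.9 normalised reads in KO and 129 and 138 in WT. It was 6.71-fold lower, a ratio of 0.149 with an adjusted p of 6.78e-05 in the authors' deposited table. With 1 library left out, the Rasgrp3 ratio ranged from 0.0896 (shallower KO left out) to 0.209 (deeper KO left out).

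Of 7 tested GTPase-activating proteins, 1 was lower by the size rule, while limma called 1 gene of this list in each direction. Rasa4, a calcium-responsive inactivator of Ras, had 579 and 507 normalised reads in KO and 1155 and 1024 in WT. Its ratio of 0.499, with an adjusted p of 0.0808 in the authors' deposited table, was at the edge of the size rule. It was 0.531 on leaving out the shallower KO library, and 0.531 again on leaving out the deeper WT library, when 0 genes of this list passed 2-fold. Without the shallower KO library, the gene of this list past 2-fold was higher in KO instead. This was Nf1, named after its value was seen, with 2437 normalised reads in the deeper KO library against a WT mean of 1192. Over all libraries the Nf1 ratio was 1.72, with an adjusted p of 0.228 in the authors' deposited table. Of 8 adaptors, Shc2 alone was lower by the size rule, with 12.0 and 8.96 normalised reads in KO and 56.9 and 22.4 in WT. The authors' deposited table gave Shc2 an adjusted p of 0.434. The Shc2 ratio was 0.264, or 0.466 when the deeper WT library was left out. Shc2 met the minimum mean only through WT, with a KO mean of 10.5, so it could only come out lower. None of 9 genes of Ras lipid modification passed 2-fold. The one farthest from a ratio of 1, the palmitoyltransferase gene Zdhhc9, had a ratio of 0.751.

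Among 20 tested effectors and kinases of the ERK cascade, 1 was higher and 2 were lower. The median log2 ratio was -0.07, and it lay between -0.02 and 0.05 with 1 library left out. Pik3cd, a catalytic subunit of PI3-kinase, had 96.6 and 108 normalised reads in KO and 24.1 and 30.3 in WT, a ratio of 3.77 with an adjusted p of 0.0183 in the authors' deposited table. Plce1, a phospholipase C that binds Ras, was 59.7-fold lower, with 14.7 and 4.98 normalised reads in KO and 751 and 424 in WT. The authors' deposited table gave Plce1 an adjusted p of 5.97e-07. The Plce1 ratio was 0.0168, and with 1 library left out it ranged from 0.00847 (deeper KO left out) to 0.0251 (shallower KO left out). Rassf1, a tumour suppressor with a Ras-association domain, had 304 and 679 normalised reads in KO and 1330.2 and 2169 in WT. Its ratio was 0.281, with an adjusted p of 0.0501 in the authors' deposited table. The Rassf1 ratio lay between 0.173 (shallower KO left out) and 0.388 (deeper KO left out) when 1 library was dropped. The count of 3 genes past 2-fold became 5 on leaving out the deeper KO library, 6 on leaving out the shallower KO library and 5 on leaving out the deeper WT library.

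The list of ERK feedback and response genes had 20 tested members, of which 7 were higher, against 8.92% of all tested genes. Of the rest, 2 were lower, against 8.56%, and 11 were neither. The count past 2-fold ranged from 6 to 11 with 1 library left out. The median log2 ratio was 0.60, beside -0.01 for all tested genes, and stayed between 0.35 and 0.68 when 1 library was left out. Of the 20, 15 had ratios above 1, against 5807 of the 11710 tested genes. The authors called 3 of the 20 in the authors' deposited table, all higher in KO, against 5.56% of all tested genes called higher. Dusp6, the phosphatase that inactivates ERK, had 539 and 412 normalised reads in KO and 109.9 and 174 in WT, a ratio of 3.35 with an adjusted p of 5.0e-04 in the authors' deposited table. Etv1, an ETS transcription factor, had 129.7 and 58.7 normalised reads in KO and 2.89 and 2.24 in WT. Its ratio was 36.7 (15.5 to 114), with an adjusted p of 0.00491 in the authors' deposited table, and 22.9 without the deeper KO library. Epha4, an ephrin receptor, had 84.6 and 47.8 normalised reads in KO and 7.71 and 10.1 in WT, a ratio of 7.44 with an adjusted p of 0.00762 in the authors' deposited table. Etv1 and Epha4 met the minimum mean only through KO, with WT means of 2.57 and 8.90. Both could thus only come out higher in KO, which limits the counts of higher genes given above. The other 4 higher genes, named after their values were seen, were not called in the authors' deposited table. Fos, Spry1 and Dusp5 turned on single libraries, while Egr1 stayed past 2-fold when any 1 library was left out. Fos, an AP-1 subunit, had 1745 and 257 normalised reads in KO and 752 and 41.5 in WT, so its libraries overlapped. The Fos ratio of 2.52 was 0.647 on leaving out the deeper KO library, 1.33 on leaving out the shallower WT library, 4.40 on leaving out the shallower KO library and 24.1 on leaving out the deeper WT library. Spry1, a relative of Spry4, had a ratio of 3.95, with 1.85 on leaving out the deeper KO library and 6.05 on leaving out the shallower KO library. Dusp5, another ERK phosphatase, had a ratio of 2.90, with 1.75 on leaving out the shallower KO library. Egr1, an early response transcription factor, had a ratio of 3.35, with 5.92 on leaving out the deeper WT library and 2.33 on leaving out the shallower WT library. The 2 lower genes, also named after their values were seen, were Spry4, an inhibitor of receptor tyrosine kinase signalling, at a ratio of 0.454, and Fosl1, an AP-1 subunit, at 0.481. Leaving out the deeper KO library gave Spry4 a ratio of 0.298, leaving out the shallower KO library gave 0.610, and leaving out the shallower WT library gave 0.550. For Fosl1 the ratio was 0.681 on leaving out the deeper KO library, 0.281 on leaving out the shallower KO library and 0.625 on leaving out the shallower WT library.

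**Figure D4:**
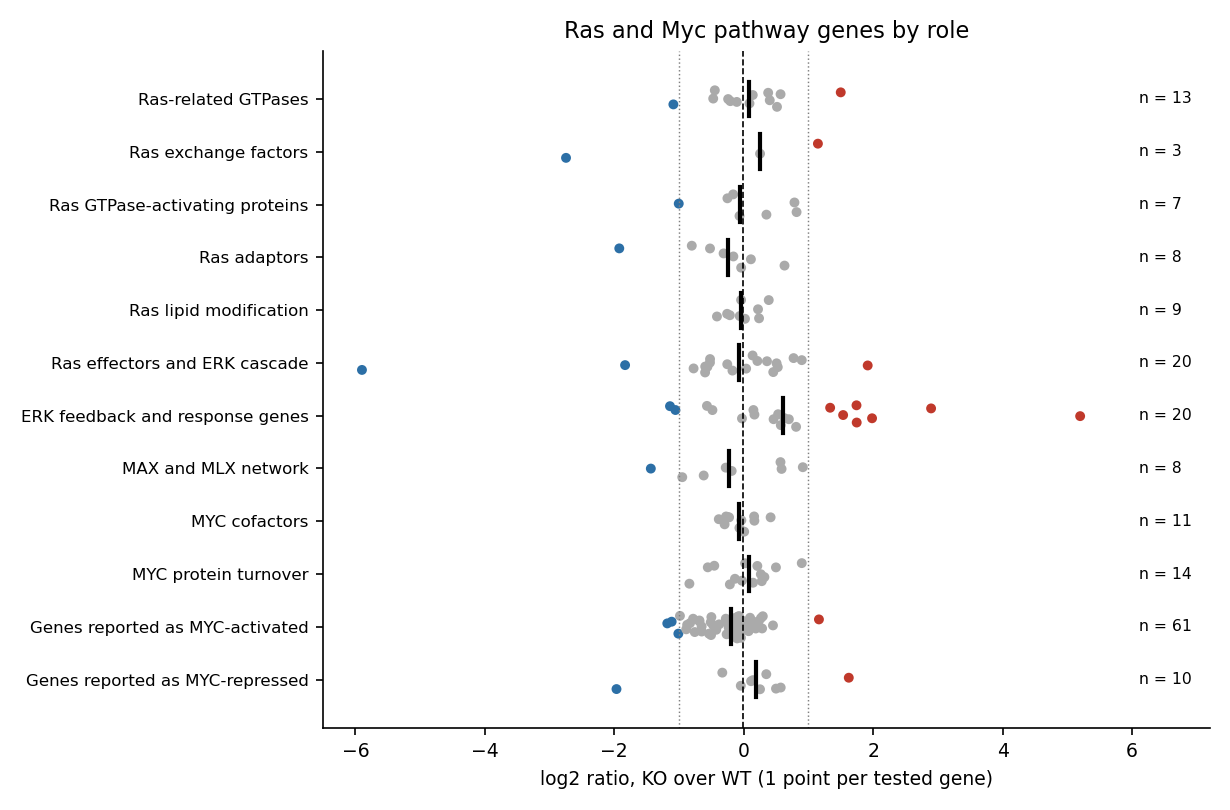
log2 ratio of KO over WT for every tested gene of the 12 lists, 1 point per gene. Red points are higher and blue points lower by the 2-fold size rule, black bars are list medians, the dashed line is the median of all tested genes and dotted lines mark 2-fold. The ERK feedback and response genes have a median of 0.60, and the genes reported as MYC-activated have a median of -0.19.

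Around Myc, the partners of MAX and MLX had 8 tested members, of which 1 was lower and 7 did not pass, with a median log2 ratio of -0.23. The lower gene was Mxd4, whose product pairs with MAX and represses transcription. It had 553 and 256 normalised reads in KO and 1419 and 768 in WT, a ratio of 0.370, and the authors' deposited table gave it an adjusted p of 0.319. The Mxd4 ratio was 0.234 on leaving out the deeper KO library, 0.506 on leaving out the shallower KO library and 0.526 on leaving out the deeper WT library. Leaving out either KO library gave 2 genes past 2-fold in place of 1. None of 11 MYC cofactors passed 2-fold, and the one farthest from 1 was the chromatin remodelling gene Bptf at 1.33. None of 14 genes of MYC protein turnover passed either, although 2 did so when the shallower KO library was left out. Fbxw7, the ubiquitin ligase subunit that targets MYC for degradation, was the farthest at 1.86, with an adjusted p of 0.194 in the authors' deposited table.

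Genes reported as MYC-activated had 61 tested members, of which 1 was higher, 3 were lower and 57 were neither. Of all tested genes, 8.92% were higher and 8.56% lower, and 10.9% were called in the authors' deposited table. The median log2 ratio of the 61 was -0.19, and 49 of 61 (80.3%) had ratios below 1, against 50.4% of all tested genes. Hk2, which encodes a hexokinase, was the only one called in the authors' deposited table, with an adjusted p of 0.0217. It had 1158 and 1226 normalised reads in KO and 376 and 689 in WT, a ratio of 2.24, or 1.73 without the deeper WT library. The 3 lower genes, named after their values were seen, act in ribosome production: Nop16 at a ratio of 0.441, Rrp9 at 0.497 and Ppan at 0.462. They were between 0.605 and 0.673 without the deeper KO library and between 0.638 and 0.678 without the shallower WT library. Leaving out the shallower KO library gave 0.273 for Nop16 and 0.320 for Rrp9. The count of genes past 2-fold likewise turned on single libraries: it was 2 on leaving out the deeper KO library, 13 on leaving out the shallower KO library, 10 on leaving out the deeper WT library and 1 on leaving out the shallower WT library. The list's median log2 ratio was 0.03, -0.57, -0.41 and 0.05 in the same order, so leaving out the deeper KO or the shallower WT library turned its sign. Between libraries of the same rank the median was negative both times, at -0.26 for the deeper pair and -0.12 for the shallower pair. Depth rank does not link libraries across genotypes, and pairs across ranks went in both directions. By the list's median centred log2 value, the shallower KO library (0.22) lay above the deeper WT library (-0.12). The deeper KO library (-0.46) lay below the shallower WT library (0.37).

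Across the 4 libraries the same list had the order of Myc. The summed level of the 61 genes was 144676 and 240518 normalised reads in the KO libraries, against 182636 and 274351 in the WT libraries. Both the list and Myc were lowest in the deeper KO library, followed by the deeper WT, the shallower KO and the shallower WT library. Of the 61 genes, 48 (78.7%) were lowest in the deeper KO library, against 28.7% of all tested genes, and 44 (72.1%) were highest in the shallower WT library, against 26.0%. With 4 libraries this is a description. By medians the order was not particular to this list. The 11 MYC cofactors shared it, with median centred log2 values of -0.13 and 0.04 in KO and -0.08 and 0.19 in WT. By summed level the cofactors did not share it, with 27388 and 27053 normalised reads in KO and 26390 and 29518 in WT. The ERK list had another order: its median centred log2 value was 0.41 and 0.12 in KO and -0.27 in both WT libraries.

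**Figure D5:**
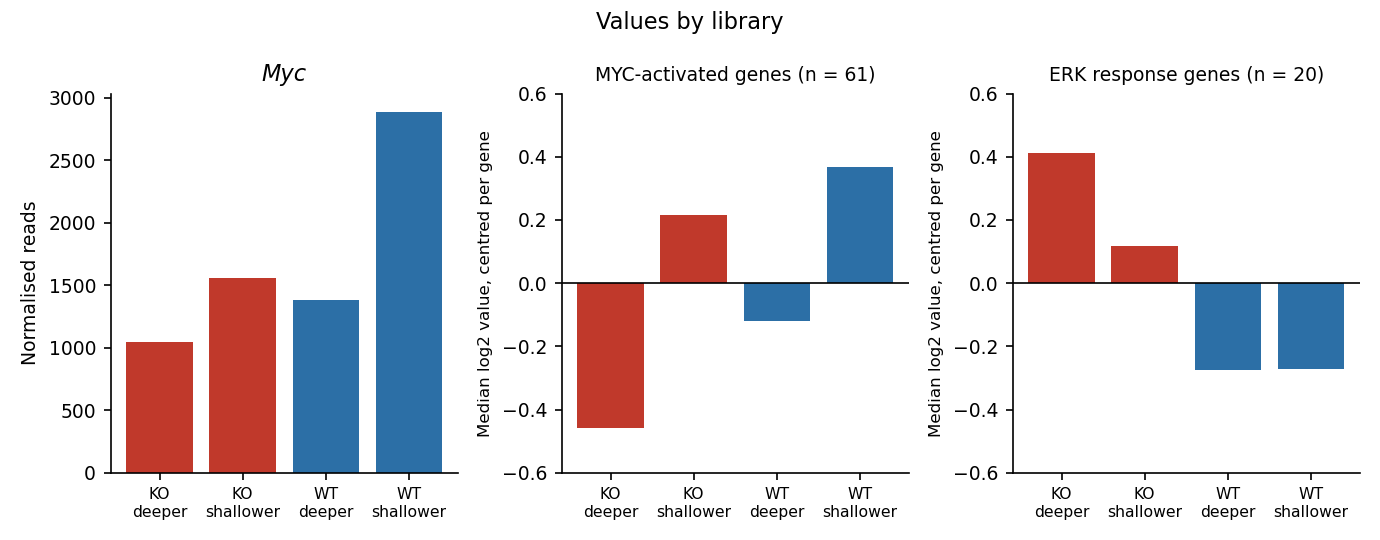
Values in the 4 libraries, KO in red on the left and WT in blue on the right. Bars give the normalised reads of Myc in the left panel, and the median centred log2 value of genes reported as MYC-activated and of ERK response genes in the other panels. Myc and the MYC-activated genes share the order of libraries, while the ERK response genes are above 0 in both KO libraries and below 0 in both WT libraries.

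Of 10 tested genes reported as MYC-repressed, 1 was higher and 1 was lower, with a median log2 ratio of 0.20. That median was -0.17 on leaving out the deeper KO library and 0.44 on leaving out the deeper WT library. Gadd45g, a growth arrest and stress gene, was 3.91-fold lower, with 369 and 405 normalised reads in KO and 1076 and 1947 in WT and an adjusted p of 0.0777 in the authors' deposited table. The higher gene, named after its value was seen, was its relative Gadd45a at a ratio of 3.08. The count past 2-fold was 4 without the shallower WT library.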

How the data were processed

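PolyA RNA of 1 Dicer KO and 1 Dicer WT sample was sequenced in paired reads. Per the submitters' processing notes, the tools were DESeq 1.10.1 and TopHat 1.4.0 and the build was mm9, each listed with no role. The annotation and read counter were not given in the sources used here. The authors deposited, per the file headers, a signal per gene (mean normalised reads), a ratio (fold, B over A), its log2 value, and p-values with adjusted p-values. Condition B was taken as KO, and A as WT, because the comparison names WT first; all directions depend on this. The deposited p-values were copied and not recomputed.

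Each deposited mean was resolved into whole reads of 2 libraries (tolerance 1e-07 reads). For 100% of the 16350 genes above 0 in KO and the 16386 in WT, exactly 1 solution existed. The design had assumed 1 library per genotype for the main values, so ratios keep the authors' means. Counting intervals are exact (Clopper-Pearson, 95%), cover counting error only, and treat reads as independent molecules, which reads without molecular identifiers are not. In 1 library, 3 reads equal 2.76 to 3.36 normalised reads. limma 3.58.1 (R 4.3.3, with a mean trend) was run on log2(normalised reads + 1) of the 11710 tested genes, with Benjamini-Hochberg adjustment. Scripts were tested on simulated data.

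GENCODE M21 and RefSeq gave sequences and lengths, with 22773 of 23227 symbols (98.0%) matched, 1936 through older symbols, so Hras1 was matched to Hras and Mycl1 to Mycl. No member overlapped exons of another annotated gene, and none had a copy of 90% identity over 400 bases. All 9 members are named; of each list, all genes called by the authors' adjusted p are named when 5 or fewer were called, and where none was called the gene farthest from a ratio of 1. Members and lists were chosen with earlier results of these data known. The alternatives left out each library, compared library pairs, and changed the minimum mean, fold, scaling, pseudocount, site length and transcript length.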

Additional observations from a re-analysis of the deposited data

How the results depend on the processing

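Of the alternative values for the ratios of the 7 tested members, 53 kept direction and side of the threshold, 2 were past 2-fold where the full ratio was not, and 1 reversed. The reversed one was Rras2, which ranged from 0.583 to 1.01 with 1 library left out, and was at 1.01 without the deeper KO library. Mycn and Mycl1 are not counted here, and no ratio could be formed for Mycn where the WT library used had 0 reads. Both others were Myc, at 0.490 on leaving out the shallower KO library and 0.451 on leaving out the deeper WT library. The number of members past 2-fold, 1 in the full data, was 1 to 2 when 1 library was left out, 2 with no minimum mean (Mycl1 was added) and 2 at 1.5-fold (Myc was added). Seed sites numbered 9 with 8 bases in place of 7, against 22, since fewer sites match more bases. With the median transcript length, 4 of 9 members kept their WT rank. Ras-related GTPases past 2-fold numbered 5 with no minimum mean, against 2.

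With 1 library left out, genes past 2-fold ranged from 1 to 2 for exchange factors, 0 to 1 for GTPase-activating proteins, 3 to 6 for effectors and the ERK cascade, 6 to 11 for ERK feedback and response genes, 1 to 2 for the MAX and MLX network, 0 to 2 for MYC protein turnover, 1 to 13 for genes reported as MYC-activated and 2 to 4 for genes reported as MYC-repressed. Apart from fewer libraries or another threshold, the cause was not tested. Scaling to total reads moved the median log2 ratio of all genes to 0.06 and upper-quartile scaling to -0.05. For the number of members past 2-fold, library pairs and upper-quartile scaling were chosen after seeing the data. No paired analysis was possible because the labels give 1 sample per genotype and the recovered libraries carry no numbers that link them across genotypes. Depth limits Mycn and Mycl1, with 4 and 25 reads in all.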

Other observations

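Promoter windows from 250 bases before to 50 after the gene start (RefSeq, GRCm38.p6) were searched for the E-box CACGTG, which reads the same on both strands. It was in 12.0% of the 9229 tested genes with a window, and in 17 of 54 (31.5%) genes reported as MYC-activated. Among the members, Nras and Max held it, Hras1, Rras, Rras2, Mras, Mycn and Mycl1 had none in this window, and the table used had no entry for Myc. The median log2 ratio of KO over WT was -0.02 for tested genes with the E-box and -0.02 for those without it. Among genes reported as MYC-activated it was -0.12 with the E-box and -0.24 without it. No difference between these groups was tested.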
